A study of Mus musculus with 8 samples.

Results

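The main effect of tumour necrosis factor alpha (TNF-α) on gene expression was measured by setting the 4 libraries of cells given TNF-α against the 4 libraries of cells without it, with the presence of trimethylamine N-oxide (TMAO) kept as the other factor. All 8 libraries of the series enter this comparison, and the rule that chose them used the labels and no measured value. The comparison and the gene lists were themselves chosen with earlier results of these data known, so the shares per list are descriptive. The cells were Hepa1-6, a mouse hepatoma line grown in DMEM with 10% fetal bovine serum, and the assay was bulk sequencing of poly(A)-selected RNA. The groups without the cytokine were untreated cells (control 14 and control 16) and cells given TMAO at 50 µM for 24 h (TMAO 14 and TMAO 16). The groups with it were cells given TNF-α at 50 ng/ml for 24 h (TNF-α 14 and TNF-α 16) and cells given both agents at the same doses for 24 h (combined 14 and combined 16). One label of the libraries given both agents writes TMAO in the place of TNF-α; the groups here follow the titles, which name each agent and which the protocol matches. The labels do not say what the numbers 14 and 16 stand for or that the libraries came from separate cultures, so p-values reflect no more than the spread among these libraries, possibly technical. The line is a single tumour line in culture, with no other liver cells beside it.

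TNF-α is a cytokine that binds the receptor TNFR1 (gene Tnfrsf1a) on most cells. The receptor recruits TRADD, TRAF2, RIPK1 and the cIAP ubiquitin ligases, which activate the IκB kinase complex. The kinase marks IκB proteins for degradation and so frees NF-κB dimers to enter the nucleus, where they bind κB sites in DNA and switch on genes of inflammation together with genes of their own inhibitors. In the liver TNF-α is known as an inducer of chemokines, adhesion molecules and part of the acute phase response, and as a cytokine that lowers genes of differentiated hepatocyte function.

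Library totals lay between 24736746 counts (TNF-α 16) and 30488605 (TMAO 16), so that 3 counts, the limit used for low values, stand for 0.0994 to 0.124 CPM (counts-per-million of the library total). The libraries of a group did not vary alike. The log2 difference between a group's 2 libraries was taken over tested genes with a mean of at least 1 CPM. Its SD was 0.254 for control, 0.18 for TMAO, 0.212 for the combined group and 0.693 for TNF-α. TNF-α 16 stood apart, with a median correlation to the other libraries of 0.9675 against 0.9811 to 0.9831, and control 14 lay off its partner in the same direction of the first component. Results that rest on these libraries are therefore also given without both. These libraries were left out because their own values stood apart, which lowers the spread that remains. P-values of that fit can thus be too small and its calls too many, and its counts are not a separate result. Hepatocyte markers were present: the 10 listed genes summed to 3090 to 3340 CPM without TNF-α and 1430 to 1500 with it, with 3 of them under 1 CPM in every library. Markers of lymphocytes (0.243 to 0.757 CPM summed over 7 genes, Cd3e and Cd3g at 0), endothelium (1.79 to 3.29 over 6) and stellate cells (1.04 to 2.47 over 7, Col3a1 at 0) were near 0. Macrophage markers summed to 30.1 to 35.2 CPM without and 27.9 to 39.4 with TNF-α over 7 genes, 4 of which stayed under 1 CPM; Csf1r, 1 of the 3 tested, fell (-1.08). In bulk RNA, fewer cells of a type and less RNA per cell cannot be told apart.

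**Figure D1:**
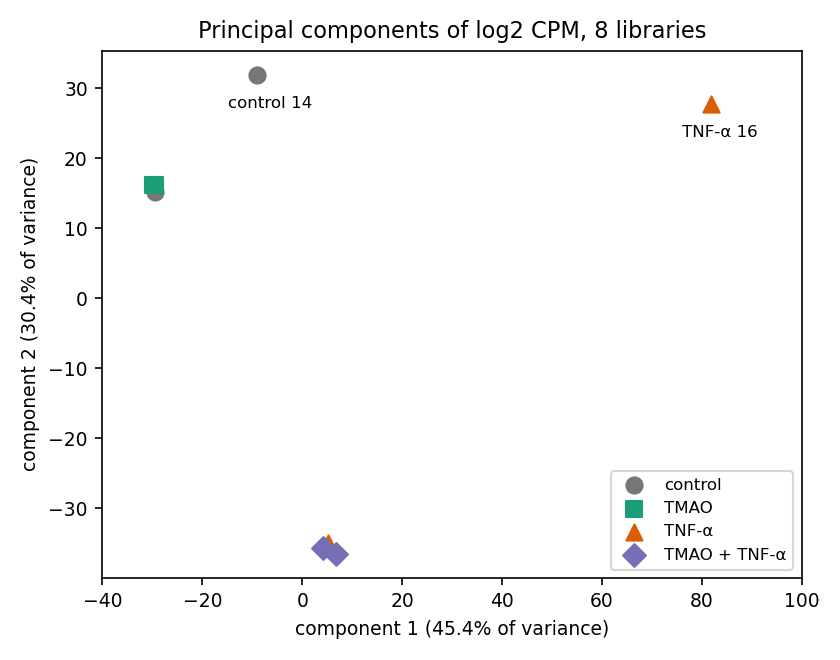
Each symbol is 1 of the 8 libraries, placed by the first component (x axis, 45.4% of the variance) and the second component (y axis, 30.4%) of log2 CPM over tested genes; some symbols overlap. TNF-α 16 lies at 81.8 on the first component, where the others span -29.8 to 6.67, and the second component holds the remaining 3 libraries with TNF-α at -36.5 to -34.9 and the 4 without at 15.2 to 31.9. On the second component TNF-α 16 lies at 27.7, within the range of the libraries without TNF-α.

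Of the genes that rose, 8 are shown first by their promoters, because they carry the letters that NF-κB is known to bind. Each is a window of 100 bases within the 250 bases before the start in the RefSeq promoter table (build GRCm38.p6), written 5′ to 3′ on the gene's strand. Capitals mark matches to the κB consensus, a motif of 10 bases searched by script on both strands, and a longer run of capitals is made of overlapping matches.
Nfkbia (chr12:55492648-55492747, strand minus): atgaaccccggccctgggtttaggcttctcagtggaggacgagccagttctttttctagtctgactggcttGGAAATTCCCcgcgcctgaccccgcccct
Tnip3 (chr6:65590298-65590397, strand plus): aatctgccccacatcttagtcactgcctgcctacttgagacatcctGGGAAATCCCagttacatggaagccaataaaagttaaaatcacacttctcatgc
Tnip1 (chr11:54962942-54963041, strand minus): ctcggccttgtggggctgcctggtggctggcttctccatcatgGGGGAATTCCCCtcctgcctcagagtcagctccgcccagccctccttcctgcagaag
Ltb (chr17:35194375-35194474, strand plus): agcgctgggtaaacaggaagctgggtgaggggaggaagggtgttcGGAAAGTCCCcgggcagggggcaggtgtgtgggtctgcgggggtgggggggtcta
Ccl20 (chr1:83116641-83116740, strand plus): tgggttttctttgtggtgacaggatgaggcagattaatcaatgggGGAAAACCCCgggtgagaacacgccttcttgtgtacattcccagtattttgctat
Madcam1 (chr10:79664444-79664543, strand plus): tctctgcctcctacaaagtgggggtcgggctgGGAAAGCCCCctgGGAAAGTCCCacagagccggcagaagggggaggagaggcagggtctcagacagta
Cxcl10 (chr5:92348938-92349037, strand minus): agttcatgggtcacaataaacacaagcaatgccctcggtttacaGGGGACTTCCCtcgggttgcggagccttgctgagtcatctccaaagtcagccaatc
Casp4 (chr9:5308749-5308848, strand plus): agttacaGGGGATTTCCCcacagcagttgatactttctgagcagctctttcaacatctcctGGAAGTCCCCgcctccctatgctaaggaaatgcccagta
Nfkbia encodes the inhibitor IκBα, Tnip3 and Tnip1 are partners of the inhibitor A20, Ltb encodes lymphotoxin beta, Ccl20 and Cxcl10 are chemokines, Madcam1 is an adhesion molecule and Casp4 is an inflammatory caspase. The windows of Nfkbia, Tnip3 and Casp4 end at the gene start, and those of Tnip1, Madcam1, Ccl20, Ltb and Cxcl10 end 1, 15, 25, 32 and 48 bases before it. Counted to the start itself, the matches in Nfkbia, Tnip3 and Ltb begin 29, 54 and 87 bases before it. A match describes these letters and is not a measured binding site. Leading genes with no match in the 250 bases searched include Pglyrp2, Sorcs1, Traf1 and Icam1. Matches were not confined to genes that rose. Of genes with a promoter searched, 13.8% of those that rose and 8.22% of those that fell had one, the latter including Cat.

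Of 15613 genes tested, 965 rose and 750 fell with TNF-α, 1715 in all, which is 11% of those tested (6.18% higher and 4.8% lower). The model had a term for each agent and was tested by quasi-likelihood in edgeR, with a Benjamini-Hochberg threshold of 0.05. At least 2-fold were 419 of the genes that rose and 266 of those that fell, at least 4-fold 146 and 67, and at least 8-fold 40 and 22. The median log2 fold change was 0.879 among genes that rose, -0.715 among genes that fell and 0.00 over all genes. Genes that rose took 2.83% to 2.96% of all counts in libraries without TNF-α and 4.69% to 4.82% in libraries with it, and genes that fell took 5.26% to 5.29% and 3.33% to 3.58%. The share that passed was 15% of genes at 1 to 10 CPM, 11.3% at 10 to 100 and 2.38% at 1000 CPM or more, where 2 of 84 genes passed and both fell. Long non-coding genes passed at 9.59% (100 higher and 48 lower of 1544), coding genes at 12% and pseudogenes at 4.9%. Without TNF-α 16 and control 14, 5775 of 16245 genes passed (35.5%; 17.4% higher, 18.1% lower), a set that holds 1710 of the 1715. Leaving out TNF-α 16 alone gave 4377, and leaving out another library than TNF-α 14 or TNF-α 16 gave 1048 to 1188.

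In 1531 genes all 4 libraries with TNF-α lay above all 4 without (9.81% of those tested), and in 1585 they lay below (10.2%). Of the genes that passed, 44 had overlapping libraries.

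**Figure D2:**
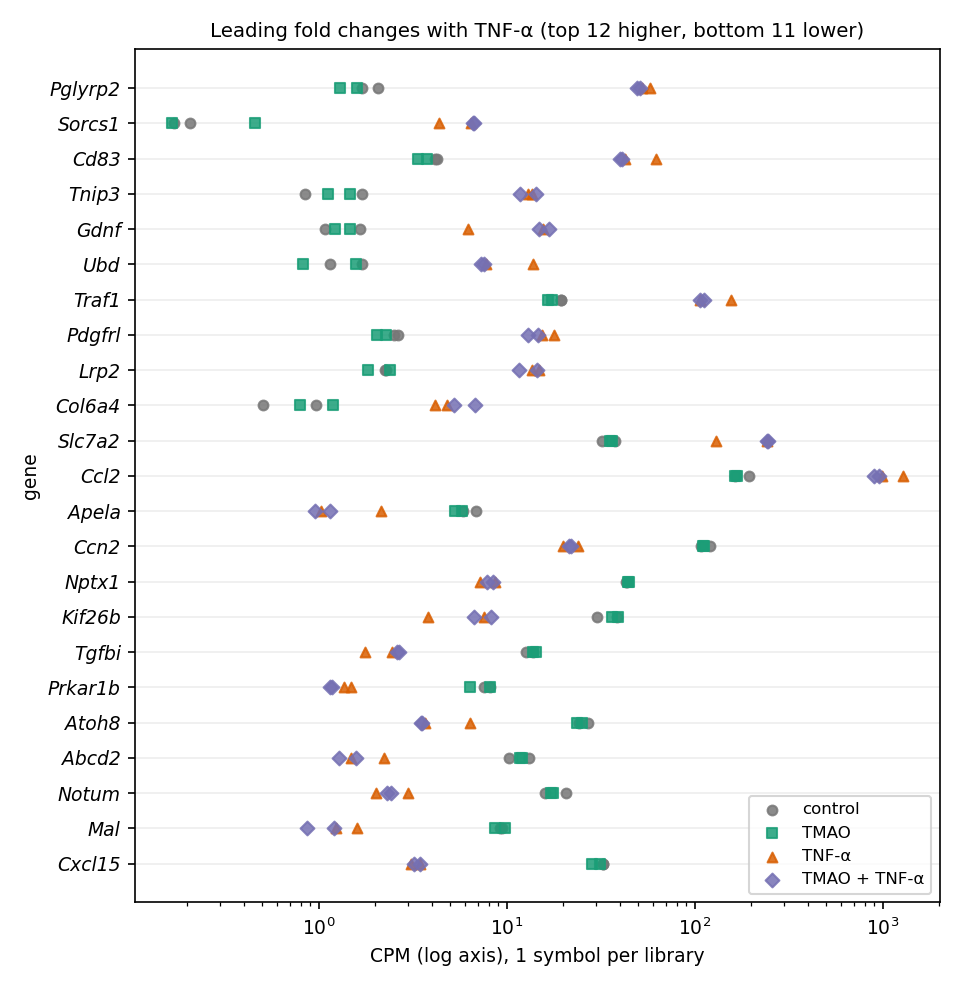
The x axis gives CPM on a log axis and each row is a gene, with 1 symbol for each library coloured by group. Among genes that passed, with separated libraries and at least 5 CPM in either set, the 12 of largest log2 fold change and 11 of those with the smallest are shown, and in all 23 the libraries with TNF-α lie clear of those without.

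Among the 562 genes that rose, had separated libraries and reached at least 5 CPM in either set, the largest fold change belonged to Pglyrp2 (ENSMUSG00000079563.9), a secreted amidase that cuts bacterial peptidoglycan. It stood at 2.06 and 1.69 CPM in control, 1.30 and 1.59 in TMAO, 52.6 and 57.9 in TNF-α and 49.5 and 51.2 in the combined libraries. Every library with TNF-α was high and every library without it low, and the fold change was 31.8 (log2 4.99 ± 0.11 SE, adjusted p = 1.09e-06). Sorcs1, a sorting receptor of the Vps10 family, went from 0.166 to 0.455 CPM up to 4.38 to 6.67 (log2 4.59 ± 0.28), with TNF-α 16 the lowest of the high libraries. Cd83, known from the surface of mature dendritic cells, was at 3.36 to 4.26 CPM without TNF-α and at 42.3, 62.4, 41.3 and 40.3 with it (log2 3.58 ± 0.14). Here TNF-α 16 was the highest. The neurotrophic factor gene Gdnf went up from 1.36 ± 0.255 to 13.4 ± 4.81 CPM (mean ± SD, n = 4 each); TNF-α 16 had 6.24 CPM and its 3 companions 14.8 to 16.7. Ubd, a ubiquitin-like modifier also known as FAT10, rose from 1.31 ± 0.397 to 9.07 ± 3.11 CPM. The endocytic receptor Lrp2 (log2 2.63 ± 0.12), Pdgfrl (2.68 ± 0.10) and the collagen chain Col6a4 (2.59 ± 0.22) also rose on the log2 scale. Slc7a2, a transporter of arginine, had 32 to 37.7 CPM without TNF-α and 242, 130, 246 and 241 with it, a 6.02-fold change with TNF-α 16 again the lowest.

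Among the receptors and proximal signalling proteins, the receptor itself was not higher. Tnfrsf1a was at 156, 140, 144 and 142 CPM in the control and TMAO libraries and at 116, 141, 117 and 113 in the TNF-α and combined libraries. Those sets overlap through TNF-α 16 alone, and the log2 fold change of -0.26 ± 0.08 missed the threshold (adjusted p = 0.0944). Without TNF-α 16 and control 14 the log2 fold change was -0.29. Traf1, an adaptor that joins TRAF2 at TNF receptors, rose 6.6-fold from 16.5 to 19.5 CPM up to 107, 156, 112 and 107. The ubiquitin ligase genes Birc3 (1.03 ± 0.08) and Birc2 (0.54 ± 0.07), the other receptor Tnfrsf1b (0.58), the kinase gene Ikbkb (0.47) and Traf2 (0.43) also rose on the log2 scale, and Traf5 fell by 0.71. In all 6 of 20 rose and 1 fell (35% of the list). The list median was -0.02, beside 0.00 over all genes. Without TNF-α 16 and control 14 the list had 7 higher and 6 lower. Over all genes that fit had 17.4% higher and 18.1% lower, against 6.18% and 4.8% with all libraries. Counts from that fit, here and in the lists below, are to be read against its larger shares.

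NF-κB subunits and their inhibitors had the largest share of members higher: 9 of 11 rose and 0 fell (81.8%, median log2 fold change 0.63). Nfkbia (ENSMUSG00000021025.8) was at 71.8, 60.6, 60.1 and 62.9 CPM without TNF-α and at 192, 244, 185 and 186 with it (3.15-fold, adjusted p = 4.27e-05). Relb, the subunit of the non-canonical pathway, rose from 40.8 ± 1.95 to 110 ± 19 CPM and Nfkbie, the gene of IκBε, from 33.3 ± 2.11 to 74.9 ± 7.68 CPM. Nfkbid (log2 1.11), Bcl3 (0.72), Nfkbib (0.63), Nfkb2 (0.57), Rela (0.36) and Nfkb1 (0.34) rose by less. Rel had 0.62 and Nfkbiz -0.04, neither past the test.

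Feedback inhibitors of the pathway split by gene. Tnfaip3 (ENSMUSG00000019850.11), which encodes A20, a ubiquitin-editing enzyme that shuts off the receptor complex, stood at 69.0, 71.2, 68.0 and 66.9 CPM without TNF-α and 240, 194, 239 and 235 with it (3.3-fold, adjusted p = 1.81e-05). Its groups lay far apart, and the call was lost on the deposited TPM values (adjusted p = 0.307). Tnip3 went from 0.845 to 1.69 CPM up to 11.8 to 14.3, a 10.2-fold change, and Tnip1 from 145 ± 7.0 to 303 ± 25.2 CPM. The mRNA-decay factors Zc3h12a (0.36) and Zfp36 (0.33) rose and Optn fell (-0.48), so that 5 of 12 rose and 1 fell (50%), and 7 and 2 did without the 2 libraries. Cyld (0.16) and Otud7b (0.00), other deubiquitinases, did not pass.

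Chemokines followed. Ccl2 (ENSMUSG00000035385.5), the attractant of monocytes, was at 195, 164, 167 and 164 CPM without TNF-α and at 990, 1284, 897 and 951 with it, a 5.94-fold change and the largest gain in CPM of any gene eligible for naming. Compared per length, its level rose from 418 to 2409 TPM (transcript units scaled for gene length), against 209 to 407 TPM for Cxcl10 and 35.0 to 104 TPM for Ccl20. Ccl5 had 12.9 to 14.7 CPM without TNF-α and 38.1 to 71.5 with it, Ccl9 5.44 to 7.13 and 23.5 to 36.4, and Ccl20 13.4 to 16.2 and 39.1 to 59.9. Ccl7 rose from 0.175 to 0.276 CPM up to 1.35 to 3.31. TNF-α 16 was the highest library in each of these 5 genes. Of 8 CC chemokines tested 5 rose and 0 fell (62.5%). Ccl27a, Ccl25 and Ccl17 did not pass.

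Of 9 CXC and CX3C chemokines 7 rose and 1 fell (88.9%). Cxcl16, a chemokine anchored in the membrane, rose from 53.3 ± 2.67 to 172 ± 29.2 CPM and Cxcl10, a ligand of CXCR3, from 106 ± 4.63 to 207 ± 29.4 CPM. Cxcl2 (0.88), Cxcl3 (0.83), Cxcl1 (0.61) and Cxcl5 (0.44), which attract neutrophils, rose on the log2 scale. Cxcl11 also passed (1.73), but the annotation lists it as a polymorphic pseudogene. Cxcl15 (ENSMUSG00000029375.6), a chemokine best known from lung, went the other way, from 32.4, 32.6, 28.6 and 31.2 CPM down to 3.11, 3.47, 3.20 and 3.44. It had the smallest log2 fold change of all genes eligible for naming (-3.24 ± 0.09, adjusted p = 1.09e-06).

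Cytokines and growth factors rose in 13 of 25 cases and fell in 1 (56%), and in 14 and 6 without the 2 libraries. Ltb, which forms the ligand of the lymphotoxin receptor, went from 12.8 to 18.3 CPM up to 58.3, 103, 54.8 and 56.2. Il1rn, the antagonist of the IL-1 receptor, rose from 18.6 ± 0.972 to 53.8 ± 2.29 CPM. Il23a rose 2.85-fold and Csf2, the gene of GM-CSF, 3.27-fold from a mean of 1.17 CPM. Tnfsf10 (1.28), Il34 (1.11), Inhbb (1.06), Csf1 (0.73) and Il15 (0.71) rose on the log2 scale. Il33, an alarmin of the IL-1 family, fell from 18.7 to 21.6 CPM to 7.94 to 9.82 (adjusted p = 0.000149).

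Several adhesion molecules that hold leukocytes on endothelium were higher in these tumour cells. Vcam1 (ENSMUSG00000027962.14) was at 54.7, 58.7, 55.7 and 54.9 CPM without TNF-α and 258, 236, 256 and 251 with it (4.47-fold, adjusted p = 2.4e-06), a gene in which TNF-α 16 lay close to the rest. Icam1 rose 2.13-fold, from 98.2, 101, 96.6 and 99.4 CPM to 214, 217, 198 and 212 (adjusted p = 2.64e-05). Madcam1 went from 13.4 to 16.6 CPM up to 82.6, 114, 71.5 and 76.5, and Selp from 0.310 to 0.666 CPM up to 1.90 to 2.38. The integrin genes Itgb3 (1.11), Itga2 (0.93) and Itgav (0.70) rose on the log2 scale. In all 8 of 14 rose and 1 fell (64.3%), and 10 and 3 did without the 2 libraries. The 1 that fell was Epcam, an adhesion molecule of biliary and progenitor epithelium, at 12.8 ± 0.988 and 5.59 ± 1.33 CPM.

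Genes of antigen presentation and interferon-stimulated genes passed in part. In MHC class I presentation 7 of 15 genes rose and 0 fell (46.7%, median 0.48), and 14 rose and 1 fell without TNF-α 16 and control 14. Tap2, a subunit of the peptide transporter, went from 9.45 to 12.2 CPM up to 20.1, 26.4, 19.9 and 19.4. Tapbp, the gene of tapasin, had 124 to 143 CPM without TNF-α; with it, 3 libraries had 207, 204 and 208 and TNF-α 16 had 310. The immunoproteasome genes Psmb10 (0.92), Psmb9 (0.91) and Psmb8 (0.73) and Tap1 (0.38) rose on the log2 scale. B2m (0.46, adjusted p = 0.0766) and H2-D1 (0.36, adjusted p = 0.141) did not pass, and reads of H2 genes can be shared among family members. Of 32 interferon-stimulated genes 11 rose and 0 fell (34.4%, median 0.33), and 25 rose and 1 fell without the 2 libraries. The guanylate-binding protein genes Gbp5 (1.61 ± 0.14), Gbp2 (1.25 ± 0.08) and Gbp3 (1.19 ± 0.07) led, and are close paralogs that can share reads. Irf1 (0.65), Mx2 (0.55), Irf7 (0.44) and Oasl2 (0.40) passed, while Isg15 (0.43), Ifit3 (0.43) and Rsad2 (0.22) did not.

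Sensors of microbes and inflammasome genes rose in 6 of 26 cases and fell in 2 (30.8%), and in 13 and 4 without the 2 libraries. Beside Pglyrp2, Casp4, the caspase that senses lipopolysaccharide, went from 14.8 ± 0.592 to 33.5 ± 2.89 CPM and Tlr2 from 9.70 ± 0.587 to 20.3 ± 0.956 CPM. Gsdmd, the pore-forming target of those caspases, rose from 84.0 ± 3.77 to 127 ± 15.9 CPM and Casp1 by 0.53 on the log2 scale. Nod2 had 0, 0, 3 and 3 counts in the libraries without TNF-α and 29, 16, 11 and 10 with it, too few for a fold to be read. Lbp (-0.59) and Irak2 (-0.48) fell. Among cell death regulators 7 of 20 rose and 2 fell (45%), and 12 and 4 did without the 2 libraries. The death receptor gene Fas rose 2.48-fold (17.3 to 20.8 CPM up to 45.3, 60.7, 45.5 and 41.6), and the BH3-only genes Bid (0.49), Bcl2l11 (0.51) and Pmaip1 (0.29) rose by less. Bcl2l1, the gene of Bcl-xL, fell by 0.51, and Casp8 fell by 0.24. In the IL-6 and JAK-STAT list 6 of 28 rose and 3 fell (32.1%): Ifngr2 (1.02), Il4ra (0.85) and Stat5a (0.67) rose, whereas the receptor genes Lifr (-0.90) and Il6ra (-0.78) and Stat3 (-0.29) fell. Without the 2 libraries 17 rose and 6 fell.

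**Figure D3:**
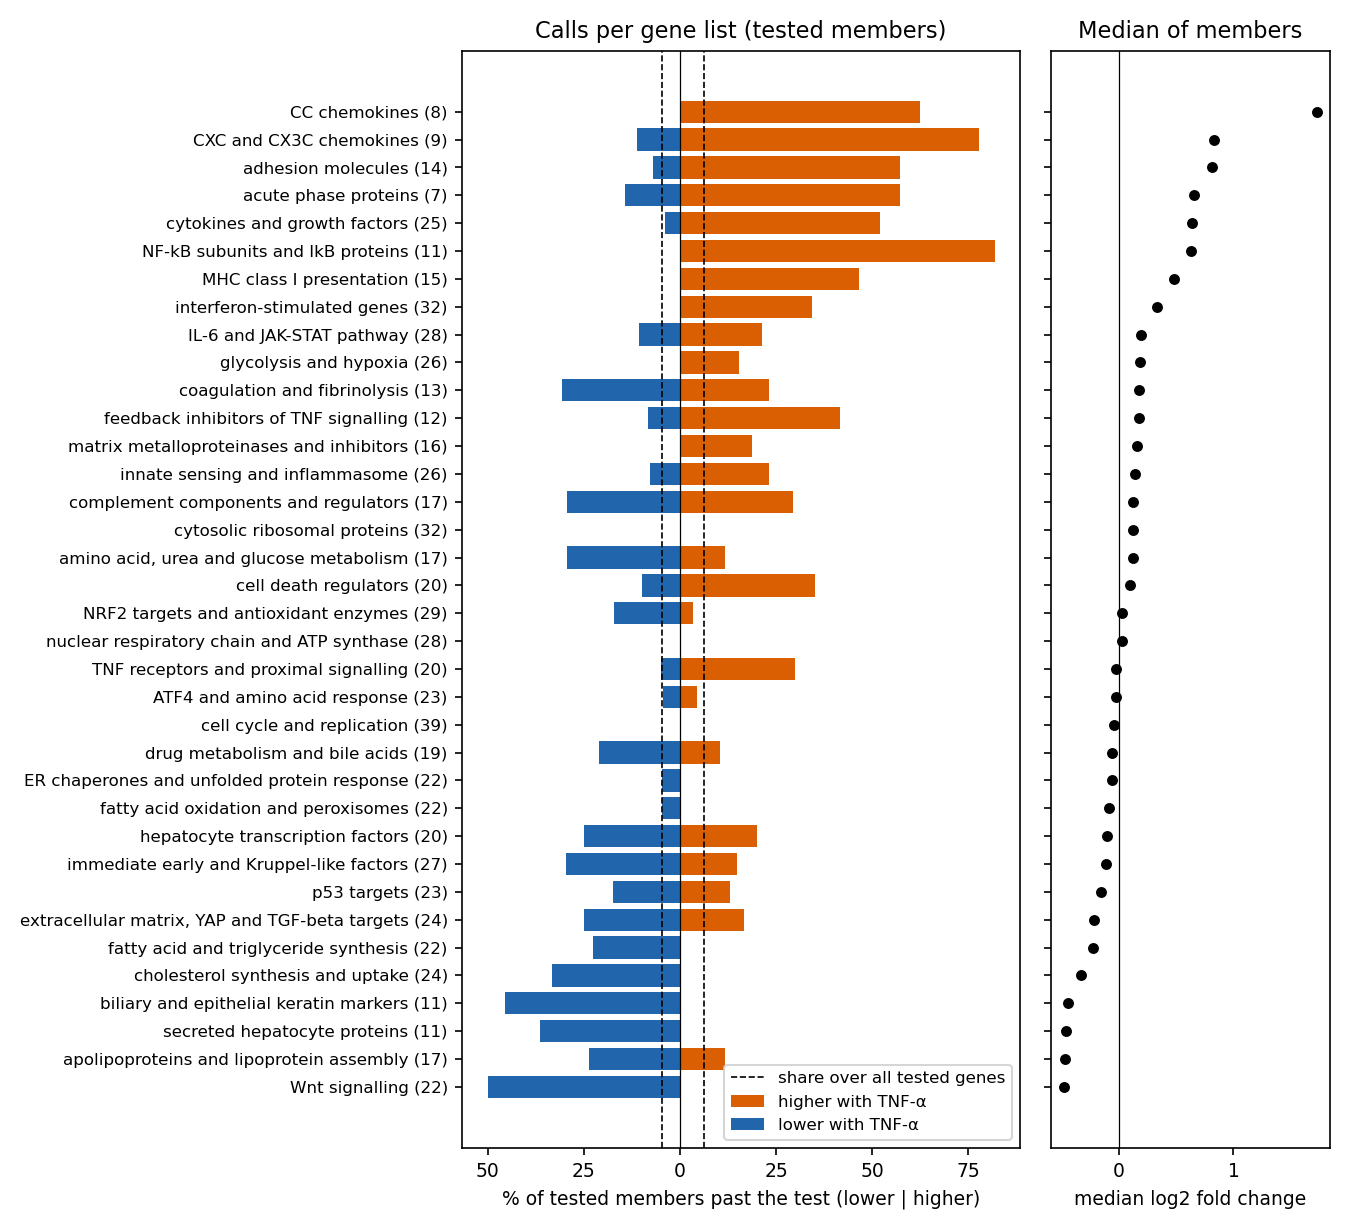
Each row is a gene list with its number of tested members, and the lists were chosen with earlier results of these data known. The left panel gives the percent of members that fell (to the left) and rose (to the right) with TNF-α, with dashed lines at 4.8% and 6.18%, the shares over all tested genes; the right panel gives the median log2 fold change of the members, from 1.73 for CC chemokines to -0.48 for Wnt signalling.

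Of the proteins that hepatocytes secrete, albumin and its fetal counterpart were lower. Alb (ENSMUSG00000029368.10), the gene of albumin, stood at 1228 and 1166 CPM in control, 1117 and 1092 in TMAO, 360 and 442 in TNF-α and 369 and 347 in the combined libraries. It fell to 0.33 of its level (log2 -1.60 ± 0.09, adjusted p = 2.91e-05). Afp (ENSMUSG00000054932.6), the fetal counterpart of albumin, was at 1591, 1510, 1429 and 1415 CPM without TNF-α and 623, 823, 621 and 595 with it (-1.16 ± 0.10), the largest loss in CPM among genes eligible for naming. In both, TNF-α 16 was the highest of the low libraries. Igfbp1, which binds insulin-like growth factors, had 145 to 195 CPM without TNF-α and 53.5 to 80.6 with it, and Fetub fell by 0.66 on the log2 scale. Of 11 secreted proteins 0 rose and 4 fell (36.4%, median -0.46), and 1 rose and 8 fell without the 2 libraries. Itih2, a carrier chain for hyaluronan, fell in every library from 571 to 583 CPM to 206 to 230.

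Acute phase and complement genes did not move as a block. Of 7 acute phase proteins tested 4 rose and 1 fell (71.4%), and Hp and Mt2 were at low level: Hp, the gene of haptoglobin, went from 0.175 to 0.406 CPM up to 1.12 to 1.49, and Mt2 from 0.163 ± 0.0800 to 0.492 ± 0.0635 CPM. Cp, the gene of ceruloplasmin, rose from 23.0 ± 0.673 to 36.3 ± 3.04 CPM, and Lbp fell from 26.6 ± 1.64 to 17.6 ± 1.83. Of 17 complement genes 5 rose and 5 fell (58.8%). C3, the central component, rose from 426, 449, 412 and 417 CPM to 1078, 794, 1055 and 1041 (adjusted p = 0.00036), and Hc (component C5, 1.17), C1s1 (0.64) and C1ra (0.50) rose on the log2 scale. Serping1, the inhibitor of C1, had 1, 0, 0 and 1 counts without TNF-α and 11, 16, 8 and 12 with it. The genes that fell include C4bp (6.27 ± 0.218 to 1.45 ± 0.301 CPM) and Cfi (21.0 ± 0.540 to 8.58 ± 0.808), regulators that restrain activated C3 or C4. Masp1 (-1.08 ± 0.07) and Clu (-0.69) fell as well. In coagulation 3 of 13 rose and 4 fell (53.8%). Tissue factor (F3), which starts coagulation, rose by 0.54 on the log2 scale. Fgb, the fibrinogen beta chain, fell from 79.3 ± 1.71 to 24.7 ± 2.91 CPM, Proc from 4.58 ± 0.300 to 1.35 ± 0.309 CPM and Serpinf2 by 1.65.

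Transcription factors of the hepatocyte changed in both directions: 4 of 20 rose and 5 fell (45%, median -0.10), and 7 and 8 did without the 2 libraries. Hnf4a, the nuclear receptor at the head of the hepatocyte programme, was at 209, 213, 214 and 210 CPM without TNF-α and 144, 112, 141 and 143 with it (adjusted p = 0.00237; 0.0941 on the TPM values). Onecut1 (-1.13), Prox1 (-1.01), Foxa2 (-0.49) and Tbx3 (-0.44) fell on the log2 scale. Nr5a2, a nuclear receptor of bile acid synthesis, had 31.0 to 33.4 CPM without TNF-α and 69.6, 47.8, 69.6 and 70.1 with it. Zhx2, a repressor of Afp in adult liver, rose from 33.3 ± 0.624 to 51.1 ± 1.96 CPM. Nr1h4 (0.89) and, from a mean of 0.331 CPM, Ppara (1.33) also rose. Cebpa (0.01) and Foxa1 (-0.23) did not pass. Of 17 genes of amino acid, urea and glucose metabolism 2 rose and 5 fell (41.2%; 4 and 8 without the 2 libraries), with the insulin receptor substrate Irs2 at 95.3 ± 1.96 and 43.7 ± 9.29. Of 19 genes of drug and bile acid handling 2 rose and 4 fell (31.6%; 5 and 7 without the 2 libraries). Cyp1a1 fell from 104 to 116 CPM to 32.6 to 38.3 (adjusted p = 3.81e-06), and Abcc3 from 122 ± 6.26 to 71.1 ± 5.78, while the efflux pump Abcg2 rose from 25.4 ± 1.58 to 36.7 ± 1.25.

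Sterol genes that passed were lower by similar amounts. Of 24 genes of cholesterol synthesis and uptake 0 rose and 8 fell (33.3%, median -0.33), and 0 rose and 19 fell without the 2 libraries. Sqle, the squalene epoxidase, was at 271, 264, 256 and 263 CPM without TNF-α and 164, 175, 171 and 171 with it (adjusted p = 0.000415). Dhcr7 (-0.48), Lss (-0.47), Nsdhl (-0.45), Insig1 (-0.39) and Hmgcs1 (-0.31) fell on the log2 scale. Among 22 genes for making fatty acids and triglycerides 0 rose and 5 fell (22.7%), and 2 rose and 16 fell without the 2 libraries. The desaturase Scd1 had 252 to 286 CPM without TNF-α and 170, 124, 166 and 172 with it, Scd2 888 to 941 and 637, 494, 621 and 624, and the acyl-CoA ligase Acsl3 137 to 138 and 88.7 to 95. Fasn (-0.18) and Acaca (-0.22) did not pass. Apolipoproteins and lipoprotein assembly genes rose in 2 of 17 cases and fell in 4 (35.3%; 2 and 9 without the 2 libraries), with Lpl at 108 ± 4.58 and 76.0 ± 6.94 CPM. Among 22 genes of fatty acid oxidation and peroxisomes 0 rose and 1 fell (4.55%), and 3 rose and 8 fell without the 2 libraries. Over all genes that smaller fit had 17.4% higher and 18.1% lower. With all 8 libraries the gene that fell was Abcd2, a peroxisomal importer of fatty acyl-CoA, which fell from 10.3 to 13.1 CPM to 1.28 to 2.22.

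Wnt signalling held the largest share of members lower among the pathway lists: 0 of 22 rose and 11 fell (50%, median -0.48), and 5 rose and 13 fell without the 2 libraries. Those that fell include feedback inhibitors which Wnt signalling itself induces. Notum (ENSMUSG00000042988.10), an esterase that strips the lipid from Wnt proteins, was at 20.6, 16, 17.1 and 17.5 CPM without TNF-α and at 2.02, 2.98, 2.30 and 2.41 with it (log2 -2.88 ± 0.14). Nkd1, an inhibitor of Dishevelled, fell from 202 to 229 CPM to 86.3 to 111, and Rnf43, a ubiquitin ligase that removes Frizzled receptors, from 101 to 109 CPM to 34.9 to 47.0. Axin2 (-0.44) and Znrf3 (-0.76), of the same feedback group, fell less. Lgr5, the R-spondin receptor, went from 120 to 54.6 CPM on average, and the receptor Ror2 from 0.949 ± 0.300 to 0.0977 ± 0.0423 CPM. Ctnnb1 (-0.11), which encodes β-catenin, Lrp6 (-0.04), Myc (0.24) and Ccnd1 (-0.09) did not pass.

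Matrix genes and targets of YAP and TGF-β split, with 4 of 24 higher and 6 lower (41.7%), and 8 and 10 without the 2 libraries. Ccn2 (ENSMUSG00000019997.11), a matricellular protein also called CTGF, was at 121, 108, 110 and 113 CPM without TNF-α and at 19.9, 23.9, 21.8 and 21.4 with it, 0.193 of its level (adjusted p = 3.81e-06). Thbs1 went from 1050, 1263, 1259 and 1288 CPM to 587, 290, 601 and 596, with control 14 the lowest of its set and TNF-α 16 far below its own. Ccn1 (-0.68) and Sparc (-0.53) fell on the log2 scale, and Tgfbi, outside the list, fell from 13.6 ± 0.708 to 2.37 ± 0.422 CPM. Lamb3, the laminin beta-3 chain, rose from 276 ± 10.3 to 546 ± 17.0 CPM. The metalloproteinase genes Mmp13 (65.2 to 67.7 CPM up to 188 to 198), Mmp9 (9.88 to 10.9 up to 28.4 to 33.4) and Mmp10 (5.01 to 5.91 up to 9.19 to 15.6) rose, 3 of 16 in that list (18.8%), with 0 lower, and 8 were higher and 3 lower without the 2 libraries. Of 11 biliary and keratin genes 0 rose and 5 fell (45.5%): Krt7 (-1.40 ± 0.17), Epcam (-1.19 ± 0.16), Krt8 (-0.51), Krt20 (-0.45 ± 0.08) and Spp1 (-0.44).

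Early response and stress genes were mixed. Of 27 immediate early and Krüppel-like factors 4 rose and 8 fell (44.4%), and 6 and 14 did without the 2 libraries. Ier3 (1.02), Fosl1 (0.62), Junb (0.58) and Fosl2 (0.56) rose, while Klf4 (54.9 ± 3.07 to 23.5 ± 1.69 CPM), Fos (-1.26), Nr4a1 (-0.80), Klf9 (-0.74) and the phosphatase Dusp1 (-0.61) fell. Targets of NRF2 and antioxidant enzymes rose in 1 of 29 cases and fell in 5 (20.7%), among them both subunits of glutamate-cysteine ligase, Gclc (100 ± 3.0 to 66.9 ± 9.82 CPM) and Gclm (148 ± 2.31 to 109 ± 2.88). Without the 2 libraries 10 rose and 14 fell, and the list median moved from 0.03 to -0.05. Of 26 glycolysis and hypoxia genes 4 rose and 0 fell (15.4%), and 14 rose and 1 fell without the 2 libraries. Among the 4 was Egln3, the oxygen sensor PHD3, at 17.4 to 33.3 CPM without TNF-α and 36.8 to 50.0 with it. Its TMAO libraries lay lower than its controls (17.4 and 19.3 against 33.3 and 32.6 CPM), so the sets are compared within each TMAO state: 48.6 and 50.0 with TNF-α alone and 36.8 and 40.4 in the combined libraries. Of 23 p53 targets 3 rose and 4 fell (30.4%), and 8 and 13 did without the 2 libraries. Of 23 ATF4 targets 1 rose and 1 fell (8.7%), and 6 and 11 did without them. Of 22 chaperones and other genes of the unfolded protein response 0 rose and 1, Dnajc3 (-0.32), fell (4.55%), and 3 rose and 12 fell without them. With all libraries 11% of all tested genes passed, so the shares of the ATF4 and chaperone lists (8.7% and 4.55%) lay below that of all genes. In the fit without the 2 libraries 17.4% of all genes rose and 18.1% fell.

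Beside the marker lists of lymphocytes, endothelium and stellate cells, 3 lists held no gene that passed in edgeR: 39 cell cycle genes (median -0.04), 32 cytosolic ribosomal proteins (0.125) and 28 nuclear genes of the respiratory chain (0.02). Averaged over the ribosomal list, log2 CPM was 10.3 for TNF-α 16 and 9.39 to 9.43 for the remaining libraries with TNF-α, against 9.46 to 9.67 without, where control 14 was the highest. Rpl19 was at 490 and 409 CPM in control and 753 in TNF-α 16, with 409 to 442 in every other library. Without TNF-α 16 and control 14 the ribosomal median turned to -0.06 with 0 higher and 20 lower, the respiratory chain median to -0.09 with 0 higher and 14 lower, and the cell cycle list had 3 higher and 17 lower. Among cyclins, Ccna2 stood at 160 to 165 CPM without TNF-α and 142 to 150 with it, sets that do not overlap, at a log2 fold change of -0.15 ± 0.06 (adjusted p = 0.183). For genes at 10 CPM or more the 95% interval of the log2 fold change had a median half-width of 0.262, so differences of that size were not detectable in many genes.

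The TNF-α difference was then taken apart by TMAO state. The interaction of the agents was called in 0 of 15613 genes by edgeR, DESeq2 and limma-voom (184 at an unadjusted p under 0.05 in edgeR), and the TMAO term of the additive model in 0 by edgeR and limma-voom and 7 by DESeq2 (512 unadjusted in edgeR). A test that calls none does not show that the responses were equal. Without TNF-α 14, a setting that leaves TNF-α 16 as the only library of its group, the interaction count was 5788. In the 4 libraries with TMAO, 2374 of 14950 genes rose and 2401 fell (31.9%). In the 4 libraries without TMAO, 1 of 14876 passed (0.00672%), Pglyrp2, with 1253 at an unadjusted p under 0.05. That count was 1383 without TNF-α 16 and 346 by DESeq2. These fits share no library, so 1 can be read against the other. Of 2330 genes that rose in the TMAO libraries and were in both fits, 1902 (81.6%) had the same sign without TMAO, and of 2382 that fell 1912 (80.3%) did, against 64.4% of all genes. In 1334 of the 2330 (57.3%) both TNF-α libraries lay above both controls, and in 1304 of the 2382 (54.7%) both lay below, where 17.6% and 17.5% of all genes did. The median log2 fold change of those that rose was 0.38 with TMAO and 0.31 without, and of those that fell -0.25 and -0.27. Across 14520 genes, which are not independent replicates, the fold changes of the separate fits had r = 0.733, with TNF-α 16 part of every value on the side without TMAO. All 1715 genes called in the 8 libraries had estimates of the same sign in both states, and that set was chosen on their sum.

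**Figure D4:**
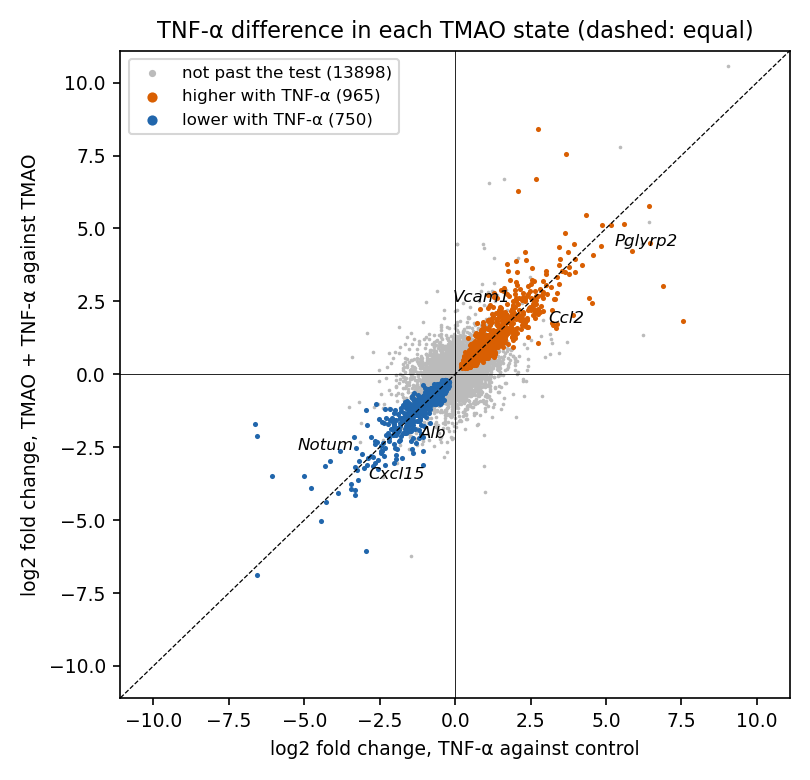
Each point is a gene, with the log2 fold change of TNF-α against control on the x axis and of the combined group against TMAO on the y axis, from the fit to all 8 libraries; the dashed line marks equal values. Genes higher (965) and lower (750) in the main comparison are coloured, and labelled genes such as Pglyrp2 (4.88 and 5.12) and Alb (-1.58 and -1.63) lie near the line.

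By gene, the estimates in the TMAO states lay close. Vcam1 had log2 fold changes of 2.12 without and 2.20 with TMAO, Ccl2 2.66 and 2.48, Tnfaip3 1.63 and 1.81, Cxcl15 -3.31 and -3.17, Notum -2.88 and -2.88 and Ccn2 -2.39 and -2.37. Wider gaps were seen for Gdnf (3.0 and 3.55), Egln3 (0.58 and 1.08) and Mmp10 (1.31 and 0.78), with an adjusted p of the interaction of 0.953 for Gdnf and Egln3.

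Across promoters, the κB consensus was found in the 250 bases before the start of 13.8% of the 679 genes that rose and had a promoter in the RefSeq table, in 16.7% of the 269 that rose at least 2-fold, in 8.22% of those that fell and in 6.1% of those that fell at least 2-fold. Over all 10628 tested genes with a promoter the share was 8.41%, and over the whole table, with 27025 promoters, it was 7.01%. Promoters of genes changed at least 2-fold were poorer in G and C (median 53.6% for those higher, 52.4% for those lower, 59.2% for all tested). Over all genes that rose the median was 57.6%, and over all that fell it was 59.2%. Within the tertile of tested promoters lowest in G and C, the κB consensus was in 12.8% of genes at least 2-fold higher, 3.26% of genes at least 2-fold lower and 5.21% of all. In the middle tertile the shares were 27.5% (19 of 69), 11.8% (4 of 34) and 8.99%. In the highest they were 13.5% (7 of 52), 7.89% (3 of 38) and 11.2%. The letters GGAATG, which TEAD factors bind, were in 21.3% of genes at least 2-fold lower, 11.2% of genes at least 2-fold higher and 11% of all tested. By tertile of G and C those shares were 28.3%, 12.2% and 14.4% in the lowest and 20.6%, 13% and 10.8% in the middle. In the highest tertile the shares were 5.26%, 5.77% and 7.37%. The first 2 rest on 2 of 38 and 3 of 52 genes, too few to give an order. The AP-1 letters TGANTCA and the TATA box TATAAA were more frequent in both directions (12.8% and 17.7% of genes at least 2-fold lower, 10.4% and 14.5% of genes at least 2-fold higher, 4.88% and 6.97% of all). In the lowest tertile TATAAA was in 27.2% of genes at least 2-fold lower, 20.3% of genes at least 2-fold higher and 14.2% of all. In the middle tertile it was in 2.94% (1 of 34), 11.6% (8 of 69) and 4.23%, and in the highest in 7.89% (3 of 38), 1.92% (1 of 52) and 2.14%. TGANTCA was in 19.6%, 12.8% and 8% of those sets in the lowest tertile. Its shares were 5.88% (2 of 34), 8.7% (6 of 69) and 4.54% in the middle and 2.63% (1 of 38), 5.77% (3 of 52) and 1.94% in the highest. Outside the lowest tertile these shares rest on few genes and give no firm order. All motifs were searched on both strands and may overlap. These are shares of letters, with no test attached.

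**Figure D5:**
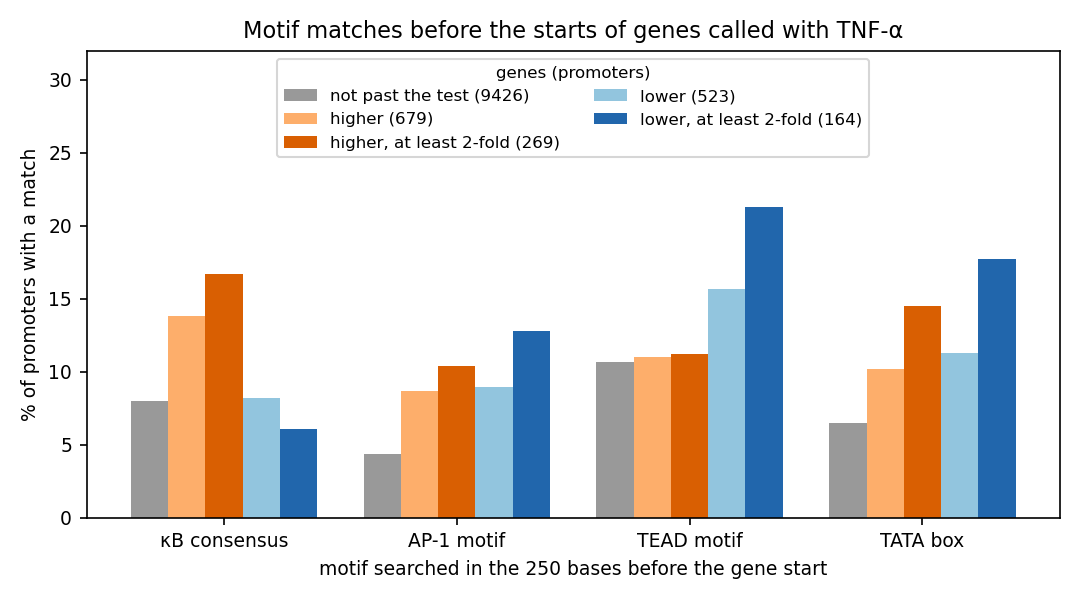
Bars give the percent of promoters with at least 1 match on either strand in the 250 bases before the gene start, for 4 motifs and 5 sets of genes, with the number of promoters of each set in the legend. The κB consensus runs from 6.1% of genes at least 2-fold lower to 16.7% of genes at least 2-fold higher, and the TEAD motif from 10.7% of genes that did not pass to 21.3% of genes at least 2-fold lower.

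In 3′ untranslated regions the decay element TATTTAT, known from unstable cytokine mRNAs, was present in 29.9% of coding genes that rose, 33.5% of those that fell and 29.3% of all tested, at 0.331, 0.304 and 0.286 sites per kb.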

How the data were processed

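Gene expression was measured in 8 libraries of Hepa1-6 cells, 2 in each of 4 groups, placed in groups by their titles. The authors deposited whole-number counts per versioned Ensembl gene, in a table whose name says htseq, and TPM values per gene symbol. Per the submitters' processing notes the build was mm9. The aligner, annotation release, strand setting and TPM program were not given in the sources used here. Without a stated strand, genes that overlap on opposite strands cannot be told apart.

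Of 54446 listed genes 24472 had 0 counts in every library. Against the GENCODE M21 annotation 53229 versioned identifiers matched, 54409 once the version was ignored; 37 lacked a symbol. The 15613 genes passing filterByExpr were scaled by TMM and fitted in edgeR 4.0.16 (R 4.3.3; robust glmQLFit) with a term for TMAO and a term for TNF-α, leaving 5 residual degrees of freedom. P-values were adjusted over all tested genes. CPM values are counts over the library's total of kept genes times its TMM factor, with no pseudocount; log2 CPM used a prior count of 2. Other fits took the interaction, and each TMAO state from its own 4 libraries.

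Genes were named by rule: among genes that passed, with separated libraries and at least 5 CPM in either set, the 12 largest and 12 smallest log2 fold changes and the 6 largest gains and losses in CPM; the 3 smallest p-values of each list; and 8 genes always named (Tnfrsf1a, Nfkbia, Tnfaip3, Vcam1, Icam1, Ccl2, Alb and Afp). The rule chose 130 genes, some of which are not reported here; other members are given by list. Spelled-out members outside it, such as Nod2, Serping1 and Ror2, were chosen after their values were seen. The members of this comparison and the 42 lists were chosen with earlier results of these data known. DESeq2 1.42.0, limma-voom (limma 3.58.1), other scalings and filters, the TPM values (limma-trend on log2(TPM + 1), 212 ambiguous symbols left out, 14670 tested) and fits without single libraries were run as alternatives. Programs were tested on simulated data in which no library stood apart. For the main effect 5 of 158 calls were false in edgeR and 41 of 212 in DESeq2, and for the interaction 4 of 62 and 32 of 113. Of simulated interactions edgeR found 0 of 75 at 1.5-fold, 7 of 62 at 2-fold and 51 of 63 at 4-fold. RefSeq promoters (GRCm38.p6) were matched by symbol.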

Additional observations from a re-analysis of the deposited data

Results flagged for a closer look

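For each of the 130 named genes, the 4 libraries with TNF-α and the 4 without were screened for 1 library far from the other 3, by the gap to its nearest neighbour over the whole range (above 0.829). Of 260 sets 44 were singled out, where chance gives about 5% of sets. TNF-α 16 was the library in 36 of them, control 14 in 5, TMAO 14 in 2 and TNF-α 14 in 1. TNF-α 16 and control 14 are the libraries that stood apart across all genes, and the part of RNA quality or handling was not tested.

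TNF-α 16 lay above the other 3 libraries with TNF-α in 20 genes. Of genes that rose with TNF-α these were Cd83 at 62.4 CPM (others 40.3 to 42.3), Ubd at 13.7, Traf1 at 156 (others 107 to 112), Ltb at 103, Nfkbia at 244, Relb at 138, Gadd45b at 38.3, Tap2 at 26.4, Cxcl10 at 251, Tapbp at 310 and Gsdmd at 150. Of genes that fell these were Aldh1a1 at 449 CPM, Afp at 823 (others 595 to 623), Igfbp1 at 80.6 and Atoh8, a transcription factor of the basic helix-loop-helix family, at 6.37. Of genes that did not pass these were Rpl19 at 753 CPM (others 409 to 442), Rpl10a at 748, Rpl5 at 1200, the cell cycle inhibitor Cdkn2c at 50.5 and Tnfrsf1a at 141.

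It lay below the other 3 in 16 genes. Of genes that rose these include Sorcs1 at 4.38 CPM, Gdnf at 6.24, Slc7a2 at 130 (others 241 to 246), Tnfaip3 at 194, Enpp2, the gene of autotaxin, at 668, C3 at 794 and Nr5a2 at 47.8. Of genes that fell these were Gclc at 52.2 CPM, Scd2 at 494, Hnf4a at 112, Abcc3 at 62.5, Scd1 at 124, Thbs1 at 290 (others 587 to 601) and Itih2 at 206. Ccna2 at 142 CPM did not pass.

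Control 14 lay apart from the other 3 libraries without TNF-α for Ccl2 at 195 CPM (others 164 to 167), Rpl10a at 498, Rpl5 at 795, Krt20 at 120 and Thbs1 at 1050 (others 1260 to 1290). TMAO 14 was lowest for Nfkbie at 30.1 CPM and Pmaip1 at 107, and TNF-α 14 was highest for Mmp13 at 198 CPM. For flagged genes that passed, the shifts without TNF-α 16 and control 14 are summarised with the dependence on processing. For those that did not pass, the log2 fold changes without these libraries were 0.004 for Rpl19, 0.017 for Rpl10a and -0.006 for Rpl5. They were -0.25 for Cdkn2c, -0.29 for Tnfrsf1a and -0.11 for Ccna2.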

How the results depend on the processing

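All 115 named genes that passed kept their sign in every alternative run, and 97 of them passed in every one; of the others, Tnfaip3, Nr5a2, Cp, Birc2, P4ha2, Dhcr7, Gclc, Scd2, Hnf4a and Rnf43 were lost on the TPM values only, and Nupr1, Angptl4, Pmaip1, Sesn2, Dnajc3, Cat, Dcn and Tm6sf2 in settings that include leaving out a single library other than TNF-α 14 or 16. Without TNF-α 16 and control 14 the 115 had a median absolute shift of 0.046 and a largest of 0.296 (Ubd) on the log2 scale. The 115 were chosen because they passed in these data, and every alternative reuses the same libraries. Kept signs and calls therefore describe the dependence on processing and are no independent support. The count of 1715 for TNF-α was 2194 by DESeq2, 1732 by limma-voom, 1712 with RLE or total-count scaling, 1724 with no filter, 1601 with at least 1 CPM in 2 libraries, 1738 without robust estimation and 1437 from 4 group means. It was 4891 by limma-voom with sample quality weights (0.0565 for TNF-α 16), 1038 on the TPM values, 5775 without TNF-α 16 and control 14, and 1048 to 4377 without single libraries, the highest without TNF-α 16. Samples with the same number did not deviate together (correlations -0.421 between control and TNF-α, and -0.0461 to 4.34e-05 for the other pairs of groups), so the numbers are not taken to pair them. With a replicate block the count was 1390. The TMAO term moved from 0 to 7 by DESeq2, 2 with quality weights, 2 with no filter, 52 without TNF-α 16 and control 14 and 0 to 9 without single libraries, the highest without TNF-α 16. The interaction moved from 0 to 1 without TNF-α 16 and control 14 and to between 0 and 5788 without single libraries. TNF-α without TMAO, 1 gene in its own 4 libraries, gave 346 by DESeq2, 0 by limma-voom, 70 with quality weights, 3 with RLE, 0 with total-count scaling, 266 with no filter, 0 with at least 1 CPM in 2 libraries, 3 without robust estimation, 258 with the replicate block, 0 on the TPM values and 60 to 6202 without single libraries, the highest without TNF-α 14. As a contrast of the fit to all 4 groups it gave 633, and 2113 there without TNF-α 16. With the numbers crossed, a pairing added after the data were seen, the block gave 946 (453 higher, 493 lower). TNF-α with TMAO, 4775 in its own 4 libraries, gave 3043 by DESeq2, 1476 on the TPM values and 569 as a contrast of the fit to all groups. The causes were not tested. For TNF-α without TMAO the fit without TNF-α 16 and control 14 could not be made, since it leaves no residual degrees of freedom. In fits that leave 1 library in a group, that library is assumed to vary like the others.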

Other observations

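Some genes outside the lists, picked after their values were seen, are known as products of activated macrophages and lymphocytes. Acod1, the enzyme that makes itaconate, was at 0.237, 0.276, 0.385 and 0.298 CPM without TNF-α and 3.18, 5.0, 3.49 and 4.4 with it. Nos2, the inducible nitric oxide synthase, was at 0.455 to 0.597 CPM without and 3.44 to 5.56 with TNF-α, and Spib, an ETS factor of B cells, at 0.210 to 0.431 and 4.17 to 5.21. Every library with TNF-α lay above every library without it in all 3, which was known when they were picked. Over all tested genes 9.81% had libraries separated in that direction. Lymphocyte markers summed to under 1 CPM in every library, and macrophage markers to 30.1 to 35.2 CPM without and 27.9 to 39.4 with TNF-α; their part in these values was not tested.

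Some genes that changed the same way stood next to each other. Among 12261 tested coding genes placed in RefSeq order, 30 runs of at least 3 neighbours passed in 1 direction (21 higher, 9 lower), with no test attached to that number. The longest, of 6 genes, held Gbp8, Gbp9, Gbp4, Gbp10 and Gbp6, which are paralogs that can share reads, and Lrrc8b. The class I processing genes Psmb9, Tap1, Psmb8 and Tap2 rose side by side by 0.91, 0.38, 0.73 and 1.01 on the log2 scale, and the inflammatory caspase genes Casp1, Casp4 and Casp12 by 0.53, 1.18 and 0.84. The complement proteases C1rl, C1ra and C1s1 rose by 0.35, 0.50 and 0.64. Slc7a2 and Pdgfrl, both among the 12 largest fold changes of genes eligible for naming, are neighbours, with Mtmr7 (1.21) beside them. The albumin family fell together: Alb (-1.60), Afp (-1.16) and Afm (-3.21), with Rassf6 (-0.55) next to them. Rnase4 (-1.52) and Ang (-1.25), ribonuclease genes known to share a promoter region, fell with Eddm3b (-1.39).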
